A study of Mus musculus with 8 samples.

Results

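The p38 MAPK cascade is described here through 10 of its kinases: the p38 isoforms *Mapk14*, *Mapk11*, *Mapk12* and *Mapk13*, the MAP2Ks *Map2k3* and *Map2k6*, the MAP3Ks *Map3k5* and *Map3k7*, and the effector kinases *Mapkapk2* and *Mapkapk3*. They were chosen by gene symbol, with earlier results of these data known. Each symbol matched 1 RefSeq target, so the members are 10 of the 23930 targets in the count tables. The cells were liver sinusoidal endothelial cells (LSECs), the fenestrated lining of the liver's capillaries, taken by flow cytometry through a gate of dim CD45, high STAB2 and high CD146. Iron citrate (150 µg, into a vein) was given to 4 young female wild-type Balb/c mice, and citrate buffer (0.05 M) to 4 others, and the cells were collected 5 h later. The labels name 1 mouse per library. The title of the series links p38 and the transcription factor ETS1 to the control of *Bmp6* mRNA by iron, without need of NRF2.

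In this cascade, stress and cytokine signals activate MAP3Ks, which phosphorylate MAP2Ks, and the MAP2Ks MKK3 and MKK6 in turn phosphorylate p38 on a threonine and a tyrosine of its activation loop. Active p38 phosphorylates transcription factors and further kinases, among them MK2 and MK3, which control the stability of inflammatory mRNAs. The cascade is switched by phosphorylation, so mRNA levels describe how much template for each kinase was present and leave kinase activity unmeasured.

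Library depth ran from 7969520 to 11314659 reads on targets. The sort markers were abundant, with *Stab2* at 977 ± 131 CPM (reads scaled to a common library size; SD, n = 4) after iron citrate and 1086 ± 154 CPM after buffer. *Mcam*, which encodes CD146, was at 179 ± 11.3 CPM after iron and 253 ± 34.8 CPM after buffer, without overlap. It did not pass in all 8 libraries (log2 fold change -0.49, edgeR adjusted p = 0.239), but it was called lower by DESeq2 (adjusted p = 0.00319), by limma-voom (0.00814), with upper-quartile factors or library totals, and without citrate buffer replicate 1 (edgeR adjusted p = 0.0135). *Hmox1*, the haem oxygenase, was higher after iron (log2 fold change 5.19), as was *Bmp6* (log2 fold change 2.36, SE 0.42, edgeR adjusted p = 0.0423). The *Bmp6* call was lost when citrate buffer replicate 2 or 3 or any of the iron citrate libraries was left out (edgeR adjusted p = 0.1295 to 0.219), with log2 fold changes of 2.30 to 2.44. Citrate buffer replicate 1 stood apart, with a median correlation of 0.839 to the libraries of its group, where the other 7 had 0.962 to 0.981. Families of intronless receptor and keratin-associated genes that are silent in liver took 2.42% of the reads of this library, 0.983% in citrate buffer replicate 2 and 0.295% to 0.611% in the other 6. In all 8 libraries edgeR called no marker of 9 cell type lists. DESeq2 called *Mcam* and *Vwf*, limma-voom *Mcam* and the neutrophil gene *Retnlg*, and edgeR without citrate buffer replicate 1 *Mcam* and the neutrophil genes *S100a8*, *S100a9* and *Retnlg*. The summed marker levels of the 2 groups overlapped for each of these lists. Sinusoidal endothelial markers, 10 of 10, summed to 21650 to 23730 CPM after iron and 14370 to 27170 CPM after buffer, with the lowest sum in citrate buffer replicate 1. Hepatocyte markers, 6 of 8 measured, summed to 323 to 660 CPM after iron and 397 to 792 CPM after buffer, and Kupffer cell and macrophage markers, 9 of 9, to 653 to 1107 CPM and 746 to 1070 CPM. Neutrophil markers, 8 of 8, summed to 216 to 261 CPM after iron and 120 to 443 CPM after buffer, with 443 CPM in citrate buffer replicate 1. T and NK cell markers, 6 of 7, summed to 603 to 747 CPM after iron and 525 to 1097 CPM after buffer, B cell markers, 3 of 5, to 64.5 to 127 CPM and 31.1 to 124 CPM, and stellate cell markers, 7 of 7, to 362 to 562 CPM and 215 to 593 CPM. *Ptprc*, the leukocyte gene for CD45, was at 165 to 208 CPM after iron and 135 to 382 CPM after buffer. Continuous endothelial markers, 7 of 8, summed to 365 to 588 CPM after iron and 215 to 421 CPM after buffer, with the lowest sum in citrate buffer replicate 1. No marker measured was at 0 in every library. In sorted bulk samples, fewer cells of a type and less RNA per cell cannot be told apart.

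Within the cascade the MAP2Ks separated the groups, in opposite directions, and the other 8 kinases did not. *Map2k6* fell to 0.440 times its level after buffer. *Map2k3* stood at 3.25 times its level after buffer but missed the threshold over all genes. All 10 members passed the filter on low counts, 1 was called lower, none was called higher, and 9 did not pass. Of the 14601 targets tested, 81 were called (0.555%), of which 77 were higher (0.527%) and 4 lower (0.0274%). The groups did not overlap for 2 of the 10 members, 1 in each direction, against 8.64% of all tested targets (6.36% higher and 2.29% lower). Since the members were chosen with earlier results of these data known, these counts describe them and test nothing about the cascade. The median log2 fold change of the members was 0.09, against -0.01 over all tested targets, and the members' median was below 0 with upper-quartile factors or library totals (-0.03 and -0.02).

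**Figure D1:**
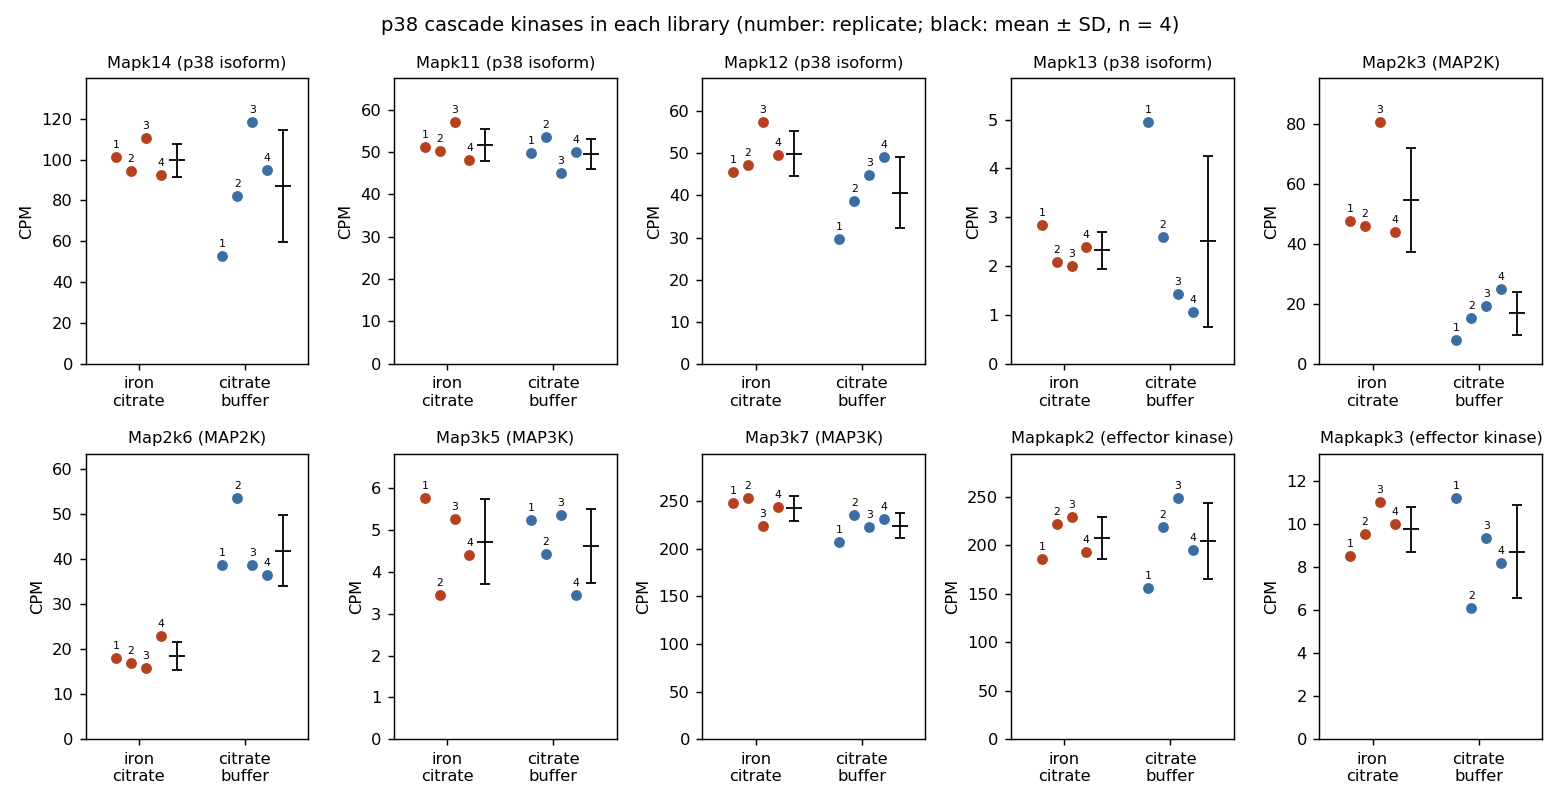
CPM of each of the 10 kinases in the 4 iron citrate libraries (left, red) and the 4 citrate buffer libraries (right, blue), with the replicate number over each point and the mean ± SD in black. The groups are separate for *Map2k3* (43.9 to 80.7 CPM after iron and 7.81 to 24.8 CPM after buffer) and for *Map2k6* (15.8 to 22.9 CPM and 36.4 to 53.7 CPM), and they overlap for the other 8.

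*Map2k6* encodes MKK6, a dual-specificity kinase that activates the p38 isoforms. Its level was 18.2, 16.9, 15.8 and 22.9 CPM in iron citrate replicates 1 to 4, against 38.8, 53.7, 38.8 and 36.4 CPM in citrate buffer replicates 1 to 4. Each iron citrate library lay below each buffer library. The group means were 18.4 ± 3.12 CPM after iron and 41.9 ± 7.92 CPM after buffer (SD, n = 4 each). On the log2 scale the difference was -1.18 (SE 0.18, 95% interval -1.59 to -0.78, edgeR adjusted p = 0.0168). These levels rest on 147 to 249 reads per iron citrate library and 275 to 643 reads per buffer library. The call was lost when citrate buffer replicate 2 or 3 (edgeR adjusted p = 0.0699 and 0.0524) or iron citrate replicate 1, 2 or 3 (0.1004, 0.103 and 0.0888) was left out. The log2 fold change stayed between -1.30 and -1.04 in these fits and in those without the other libraries.

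*Map2k3* encodes MKK3, the other MAP2K that is largely devoted to p38. It was measured at 47.7, 46.1, 80.7 and 43.9 CPM in iron citrate replicates 1 to 4, against 7.81, 15.4, 19.2 and 24.8 CPM in citrate buffer replicates 1 to 4. The lowest iron citrate library lay above the highest buffer library, and iron citrate replicate 3 lay well above the other 3 of its group. The means were 54.6 ± 17.5 CPM after iron and 16.8 ± 7.12 CPM after buffer (SD, n = 4 each). The log2 fold change was 1.71 (SE 0.34, 95% interval 0.96 to 2.46), and the edgeR adjusted p was 0.0789. Its fold change was thus the larger of the MAP2Ks and its test the weaker, since its libraries were spread more widely within each group. Within each group, *Map2k3* was lower the larger the share of reads on the silent families. The share was 0.444%, 0.508%, 0.295% and 0.611% in iron citrate replicates 1 to 4. In citrate buffer replicates 1 to 4 it was 2.419%, 0.983%, 0.461% and 0.42%. Citrate buffer replicate 1 thus had the lowest *Map2k3* and the largest share, and iron citrate replicate 3 the highest *Map2k3* and the smallest share. The part of this in the *Map2k3* difference was not tested. *Vwf*, a marker of continuous endothelium, also had its highest level in iron citrate replicate 3 and its lowest in citrate buffer replicate 1. It was at 40.8 to 143 CPM after iron and 4.76 to 30.4 CPM after buffer, without overlap (log2 fold change 2.03, edgeR adjusted p = 0.239). Of the other measured markers of this list, *Sox17* was also higher without overlap (log2 fold change 0.57). The groups overlapped for *Cd34* (-0.03), *Efnb2* (0.19), *Selp* (0.33), *Ly6a* (0.55) and *Rspo3* (0.63). Citrate buffer replicate 1 also had the lowest sum of sinusoidal markers. The part of other endothelium in the *Map2k3* difference was not tested. Without citrate buffer replicate 1 the *Map2k3* log2 fold change was 1.48 (SE 0.225, edgeR adjusted p = 0.00213), and 1.76% of targets were then called, 1.5% higher and 0.258% lower. Without citrate buffer replicate 4 it was 1.95 (edgeR adjusted p = 0.0468). Without both citrate buffer replicates 1 and 2, a fit added after the data were seen, it was 1.32 (edgeR adjusted p = 0.0161). Dropping any other single library moved *Map2k3* further from the threshold (edgeR adjusted p = 0.167 to 0.326). Its log2 fold changes in those fits were 1.455 to 1.799. The other scalings, the filter at a mean of 5 CPM and the replicate block also left it above 0.05 (edgeR adjusted p = 0.0601 to 0.0811). DESeq2, which called 2.55% of targets (2.06% higher and 0.489% lower), and limma-voom, which called 1.99% (1.69% higher and 0.295% lower), passed *Map2k3* as well as *Map2k6* in all 8 libraries (adjusted p = 0.000294 and 0.00321 for *Map2k3*).

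**Figure D2:**
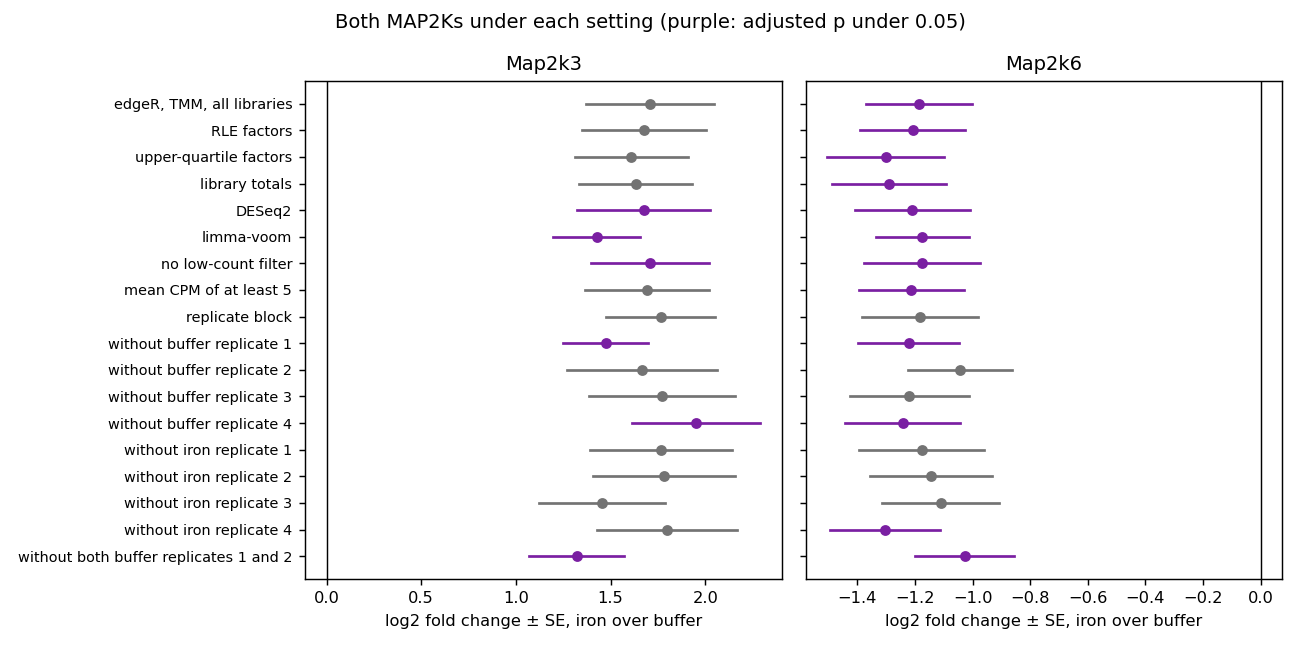
Log2 fold change ± SE of *Map2k3* (left) and *Map2k6* (right), iron citrate over citrate buffer, in all 8 libraries and under each other setting, with fits at an adjusted p under 0.05 in purple. *Map2k3* lies between 1.32 and 1.95 and *Map2k6* between -1.30 and -1.03 across the alternatives, and neither crosses 0.

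The MAP2Ks can also be set against each other within each library, where scaling between libraries plays no part. Their ratio does not show which of them moved, so their opposite directions rest on the scaled levels above. The reads on *Map2k3* divided by those on *Map2k6* gave 2.62, 2.71, 5.11 and 1.92 in iron citrate replicates 1 to 4, against 0.203, 0.287, 0.494 and 0.681 in citrate buffer replicates 1 to 4. The ratio was higher in each iron citrate library than in each buffer library. This had to follow, since *Map2k3* was higher and *Map2k6* lower without overlap in the same libraries. On the log2 scale, with 0.5 added to each count, the mean ratio was 1.53 ± 0.59 after iron and -1.42 ± 0.78 after buffer (SD, n = 4 each). The difference of 2.95 corresponds to a 7.73-fold higher ratio after iron. The 2 kinases are read through amplicons of unknown relative efficiency, so a ratio above or below 1 does not say which mRNA was the more abundant. The ratio is given without a test, since the kinases were set side by side because they went opposite ways. When single libraries were left out the difference lay between 2.66 and 3.24. For other kinases of shared role, the log2 ratio of *Mapk14* to *Mapk11* was 0.95 ± 0.03 after iron and 0.76 ± 0.55 after buffer, a difference of 0.19. That of *Mapk12* to *Mapk11* differed by 0.26, that of *Mapkapk3* to *Mapkapk2* differed by 0.16 and that of *Map3k5* to *Map3k7* by -0.08.

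**Figure D3:**
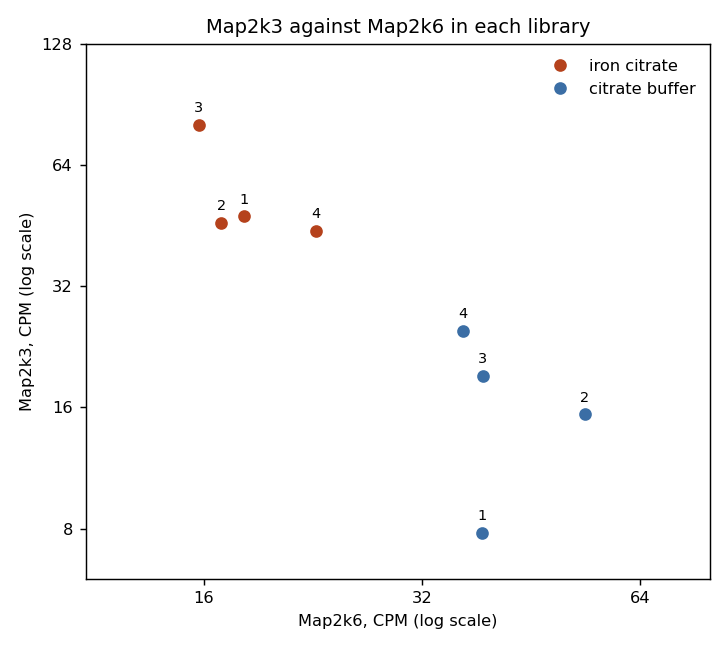
*Map2k3* against *Map2k6* in CPM, both on log2-spaced axes, with each point a library and its replicate number above it. The 4 iron citrate libraries (red) lie at the upper left, with *Map2k6* up to 22.9 CPM, and the 4 citrate buffer libraries (blue) at the lower right, with *Map2k3* up to 24.8 CPM.

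The stretches before the start sites of the MAP2Ks are shown because these are the members whose levels separated the groups. Both genes lie on mouse chromosome 11, with 913 protein-coding genes between them. The 250 bases before each start are given 5′ to 3′ as in RefSeq (build GRCm38.p6, plus strand), for *Map2k3* at chr11:60931804-60932053 and for *Map2k6* at chr11:110398852-110399101, the most upstream of its 3 listed starts. Capitals mark matches, on either strand, to CCGGAA (a form of the site bound by ETS factors) or TGANTCA (AP-1). They also mark matches to TGACNNNGC (the antioxidant response element bound by NRF2) or GGGCGG (the GC box). The shorter ETS core GGAA is not marked and occurs in both windows.
Map2k3: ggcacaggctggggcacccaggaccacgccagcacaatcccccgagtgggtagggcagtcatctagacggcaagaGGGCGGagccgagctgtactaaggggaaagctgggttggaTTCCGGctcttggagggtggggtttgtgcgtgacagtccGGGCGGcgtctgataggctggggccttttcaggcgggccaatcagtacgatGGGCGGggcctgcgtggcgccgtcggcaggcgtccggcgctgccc
Map2k6: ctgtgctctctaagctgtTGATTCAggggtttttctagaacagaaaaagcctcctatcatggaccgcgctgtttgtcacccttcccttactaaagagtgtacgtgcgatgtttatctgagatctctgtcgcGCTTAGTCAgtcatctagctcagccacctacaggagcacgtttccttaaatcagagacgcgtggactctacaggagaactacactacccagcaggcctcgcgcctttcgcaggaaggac
The *Map2k3* window held 1 match to CCGGAA, which 12% of all 32851 such windows hold, and 3 to GGGCGG, found in 32.7% of windows. The *Map2k6* window held 1 match to TGANTCA, present in 6.7% of windows, and 1 to TGACNNNGC, present in 10.2%, and no capital stretch overlaps another. Its match to TGANTCA reads TGATTCA, so it lacks the C or G of the AP-1 site. The window also held 1 match to TGCNCNC, a loosened metal response element with any base where the element has A or G. That match, TGCTCTC, has T there. The loosened pattern was in 44.4% of windows and not in the *Map2k3* window. TATAAA, TGACGTCA and CACGTG were in neither window. The *Map2k3* window was 67.6% G and C with 20 CpG, the *Map2k6* window 50.4% with 12 CpG, against medians of 52.4% and 6 over all windows. A match describes letters and does not show that a factor binds.

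The p38 isoforms come as neighbouring genes, *Mapk11* beside *Mapk12* on chromosome 15 and *Mapk14* near *Mapk13* on chromosome 17 with no protein-coding gene between. None of the 4 passed the test, and the groups overlapped for each. *Mapk14* encodes p38 alpha, the widely expressed isoform, and was at 101, 94.6, 111 and 92.6 CPM in iron citrate replicates 1 to 4, against 52.8, 82.3, 118.5 and 95.1 CPM in citrate buffer replicates 1 to 4. The buffer libraries spanned more than the iron citrate libraries, which lay inside their range. The log2 fold change was 0.19 with a 95% interval of -0.29 to 0.68, so a 1.599-fold higher level was within the interval. With limma-voom (-0.001) and without both citrate buffer replicates 1 and 2 (-0.10) its sign turned.

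*Mapk11*, which encodes p38 beta, was the steadiest isoform, at 48.2 to 57.1 CPM after iron and 45.1 to 53.7 CPM after buffer. Its log2 fold change was 0.06 with a 95% interval of -0.21 to 0.33, and it was below 0 with upper-quartile factors and library totals (-0.06 and -0.05). *Mapk12*, which encodes p38 gamma, an isoform known from skeletal muscle, was at 45.6, 47.2, 57.5 and 49.5 CPM in iron citrate replicates 1 to 4, against 29.7, 38.8, 45.0 and 49.2 CPM in citrate buffer replicates 1 to 4. Its lowest values were in citrate buffer replicates 1 and 2. Its log2 fold change was 0.30 (SE 0.17, edgeR adjusted p = 0.362), and 0.18 without citrate buffer replicate 1.

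*Mapk13*, which encodes p38 delta, was barely detected, with 18 to 29 reads per iron citrate library and 8 to 52 per buffer library. It was at 2.83, 2.07, 2.00 and 2.39 CPM in iron citrate replicates 1 to 4, against 4.95, 2.59, 1.42 and 1.06 CPM in citrate buffer replicates 1 to 4. The highest values after buffer were in replicates 1 and 2, the libraries with the most reads on silent gene families. The log2 fold change was -0.12 with a 95% interval of -1.18 to 0.94, and it was 0.43 without citrate buffer replicate 1 and 0.88 without both. The *Mapk13* interval thus holds differences of more than 1 log2 unit downwards and nearly as much upwards.

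**Figure D4:**
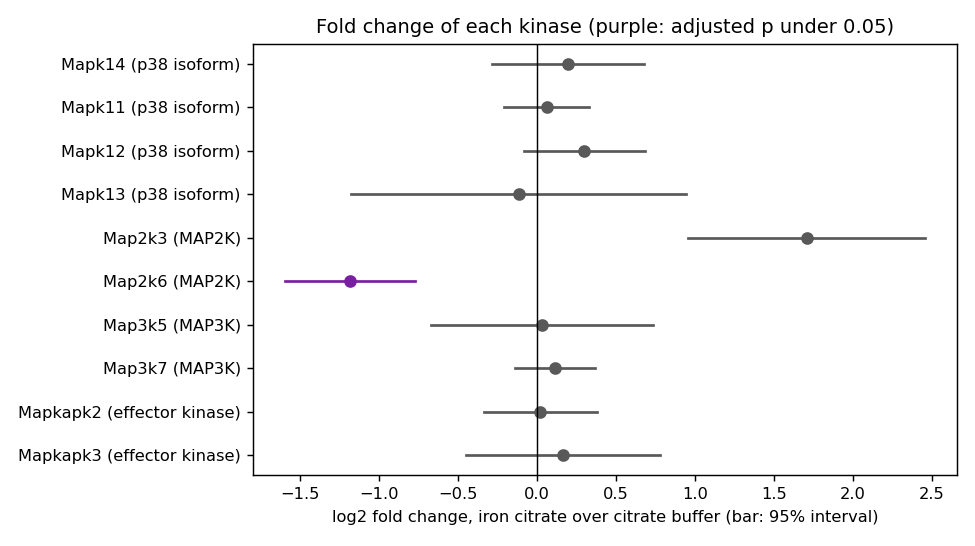
Log2 fold change of each kinase, iron citrate over citrate buffer, with its 95% interval, ordered by role from the p38 isoforms to the effector kinases. The intervals of *Map2k3* (0.96 to 2.46) and *Map2k6* (-1.59 to -0.78) leave out 0, those of the other 8 include it, and *Map2k6* (purple) is the kinase with an adjusted p under 0.05.

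Upstream of the MAP2Ks, *Map3k7* encodes TAK1, which relays cytokine, TGF-beta and BMP signals. It was at 248, 253, 224 and 244 CPM in iron citrate replicates 1 to 4, against 207, 236, 223 and 231 CPM in citrate buffer replicates 1 to 4. These groups overlapped within a narrow band. The log2 fold change was 0.11 (SE 0.11, 95% interval -0.14 to 0.36, edgeR adjusted p = 0.604). *Map3k5* encodes ASK1, a kinase that oxidative stress activates and that reduced thioredoxin holds inactive. It was low, at 3.46 to 5.77 CPM after iron and 3.44 to 5.34 CPM after buffer. Its log2 fold change was 0.03 with a 95% interval of -0.67 to 0.73, and its sign turned with upper-quartile factors, library totals and DESeq2.

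Downstream of p38, *Mapkapk2* encodes MK2, which phosphorylates the mRNA-destabilising protein tristetraprolin and the small heat-shock protein HSP27. It was at 186, 222, 229 and 193 CPM in iron citrate replicates 1 to 4, against 156, 219, 249 and 195 CPM in citrate buffer replicates 1 to 4, and the group ranges overlapped almost fully. For *Mapkapk2* the log2 fold change was 0.02 with a 95% interval of -0.34 to 0.38, with either sign across the alternatives (-0.11 to 0.13). *Mapkapk3*, which encodes the related MK3, was at 8.51 to 11.03 CPM after iron and 6.10 to 11.2 CPM after buffer, a log2 fold change of 0.16 with a 95% interval of -0.45 to 0.78.

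The libraries were also searched for targets that followed the MAP2Ks, by the root-mean-square difference of log2 CPM, centred per gene, over the 8 libraries. Among 11465 targets, the nearest to *Map2k3* were *Sqstm1*, the autophagy cargo adaptor p62 (difference 0.21), *Procr*, the endothelial protein C receptor (0.27), and *Mbd1*, a methyl-CpG-binding protein (0.27), against a median of 0.98 over all compared. *Sqstm1* was at 953, 757, 1012 and 827 CPM in iron citrate replicates 1 to 4, against 125, 303, 360 and 413 CPM in citrate buffer replicates 1 to 4. Like *Map2k3*, it had its highest value in iron citrate replicate 3 and its lowest in citrate buffer replicate 1. With edgeR in all 8 libraries none of these 3 passed (adjusted p = 0.0888, 0.279 and 0.264). Across 17 alternative runs *Sqstm1* passed in 5, DESeq2 (adjusted p = 0.000269) and limma-voom (0.000265) among them. *Procr* passed in 4, also with DESeq2 (0.0395) and limma-voom (0.0336), and *Mbd1* in 4. The nearest to *Map2k6* were *Stox2*, a winged-helix protein gene (difference 0.18), *Nr2f2*, the nuclear receptor COUP-TFII of venous endothelium (0.22), and *Ldb2*, a cofactor of LIM-domain proteins (0.28), against a median of 0.72. *Stox2* was at 21.9, 17.4, 20.4 and 20.03 CPM in iron citrate replicates 1 to 4, against 42.8, 50.5, 37.9 and 35.4 CPM in citrate buffer replicates 1 to 4. It fell (log2 fold change -1.06, SE 0.16, edgeR adjusted p = 0.014), a call lost when either citrate buffer replicate 2 or any of the iron citrate libraries was left out (adjusted p = 0.0572 to 0.078). *Nr2f2* (log2 fold change -0.81, edgeR adjusted p = 0.234) and *Ldb2* (-0.81, 0.137) did not pass with edgeR in all 8 libraries. They passed in 2 and 4 of the 17 alternative runs. These neighbours were picked for their likeness, so their values describe and support nothing.

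Around the members, 85 genes of the p38 network were listed in 8 groups by role. Of these, 80 were measured, 74 passed the filter on low counts, 1 rose, none fell and 73 did not pass in the edgeR fit of all 8 libraries. DESeq2 and limma-voom each called 5, all higher. Over all tested targets the share called higher was 0.527% with edgeR, 2.06% with DESeq2 and 1.69% with limma-voom. The gene that rose was *Txn1*, thioredoxin, the protein that holds ASK1 inactive. It was at 728, 800, 998 and 816 CPM in iron citrate replicates 1 to 4, against 380, 399, 492 and 463 CPM in citrate buffer replicates 1 to 4, with every iron citrate library above every buffer library. Its log2 fold change was 0.95 (SE 0.15, edgeR adjusted p = 0.0218). The call was lost when any library other than citrate buffer replicate 1 was left out (edgeR adjusted p = 0.0531 without citrate buffer replicate 4 to 0.142 without citrate buffer replicate 2). *Gadd45g*, which encodes an activator of the p38-directed kinase MAP3K4, was at 141 to 166 CPM after iron and 74.7 to 108 CPM after buffer (log2 fold change 0.72, edgeR adjusted p = 0.089), and it passed without citrate buffer replicate 1 (0.79, adjusted p = 0.00547) and with DESeq2 (0.0011) and limma-voom (0.00183). The other 7 MAP3K partners did not pass with edgeR in all 8 libraries.

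**Figure D5:**
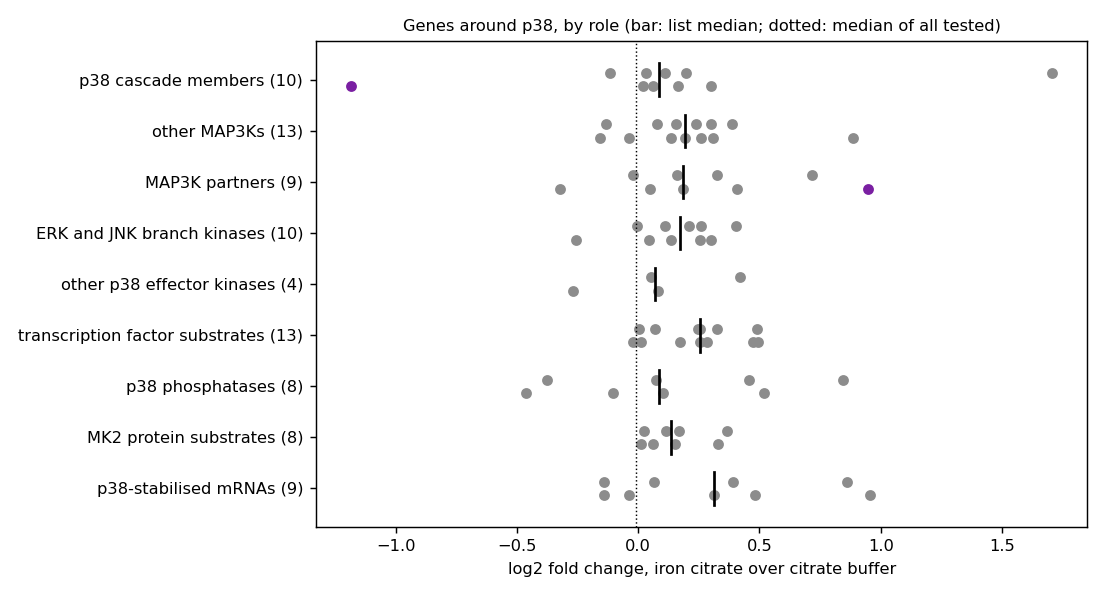
Log2 fold change, iron citrate over citrate buffer, of each tested gene in the p38 cascade and in 8 lists by role, with the number tested in brackets, the list median as a bar and the median of all tested targets (-0.01) as a dotted line. *Map2k6* and *Txn1* (purple) are the genes with an adjusted p under 0.05, and list medians lie between 0.07 and 0.31.

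Among 13 tested further MAP3Ks none passed with edgeR in all 8 libraries (median log2 fold change 0.19, 0.003 without citrate buffer replicate 1 and -0.06 with limma-voom). *Map3k20*, which encodes the stress kinase ZAK, is named after its values were seen, at 27.8 to 38.4 CPM after iron and 10.6 to 22.8 CPM after buffer (log2 fold change 0.89, edgeR adjusted p = 0.2101). It was called by DESeq2 (adjusted p = 0.0226), by limma-voom (0.0363) and by edgeR without citrate buffer replicate 1 (0.0335). The most abundant MAP3Ks of this list were *Taok1*, at 209 to 243 CPM after iron and 160 to 247 CPM after buffer, and *Map3k3*, at 165 to 221 CPM and 91.2 to 242 CPM. Nor did any of 10 kinases of the parallel ERK and JNK branches pass (median 0.17, 0.049 without citrate buffer replicate 1, 0.038 with limma-voom and -0.039 without both citrate buffer replicates 1 and 2), in which *Mapk3*, encoding ERK1, was at 335 ± 28.7 CPM after iron and 337 ± 90.2 CPM after buffer (SD, n = 4 each). None of 4 other effector kinases passed (median 0.07). Their median was below 0 with upper-quartile factors, library totals and limma-voom. It was also below 0 without citrate buffer replicate 1, without iron citrate replicate 3 and without both citrate buffer replicates 1 and 2. Among these 4 kinases, *Mknk2*, a kinase of the cap-binding factor eIF4E, was at 208 to 304 CPM after iron and 62.9 to 267 CPM after buffer. *Rps6ka4*, the CREB and histone kinase MSK2, was at 36.9 to 65.8 CPM and 35.0 to 58.2 CPM.

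Of 13 transcription factors that p38 or its effector kinases phosphorylate, or that the study names, none passed with edgeR in all 8 libraries, and the median log2 fold change was 0.25. In 6 of them, *Atf1*, *Creb1*, *Mef2a*, *Mef2d*, *Elk4* and *Max*, every iron citrate library lay above every buffer library, which was so for 6.36% of all tested targets. These 6 were singled out after their values were seen. The shifts were small, with log2 fold changes of 0.25 to 0.49 and the smallest edgeR adjusted p, 0.241, for *Mef2a*, and they stayed above 0 under each alternative scaling. *Mef2a*, a MADS-box factor that p38 phosphorylates, was at 309 to 356 CPM after iron and 194 to 266 CPM after buffer, and DESeq2 (adjusted p = 0.0305) and limma-voom (0.0394) called it higher. *Ets1* was at 727, 730, 895 and 731 CPM in iron citrate replicates 1 to 4, against 427, 579, 796 and 934 CPM in citrate buffer replicates 1 to 4, so that the iron citrate libraries lay inside the range of the buffer libraries (log2 fold change 0.17, 95% interval -0.34 to 0.69).

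None of 8 p38 phosphatases passed (median 0.09, below 0 with upper-quartile factors and library totals). *Dusp1*, the inducible phosphatase that inactivates p38 and JNK, was at 521 ± 52.3 CPM after iron and 486 ± 45.7 CPM after buffer (SD, n = 4 each). *Ppm1a*, a phosphatase of p38 and its MAP2Ks, was at 121 to 161 CPM after iron and 72.7 to 127.5 CPM after buffer. Nor did any of 8 protein substrates of MK2 pass (median 0.13, and -0.02 with limma-voom), with *Zfp36*, encoding tristetraprolin, at 544 to 981 CPM after iron and 411 to 696 CPM after buffer and *Lsp1*, an actin-binding leukocyte protein, at 123 to 166 CPM and 108 to 180 CPM.

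Of 12 mRNAs that p38 and MK2 are known to stabilise, 9 passed the filter on low counts, none of which edgeR called in all 8 libraries (median 0.31). The median was 0.03 over the 7 with a mean of at least 5 CPM, and 0.14 without citrate buffer replicate 2. *Ier3*, an immediate early gene named after its values were seen, was at 18.7 to 29.8 CPM after iron and 10.9 to 16.4 CPM after buffer (log2 fold change 0.95, edgeR adjusted p = 0.137). It was called by DESeq2 (adjusted p = 0.00283) and by edgeR without citrate buffer replicate 1 (0.0336). *Il1b*, the cytokine interleukin-1 beta, was at 94.0, 59.8, 74.3 and 59.8 CPM in iron citrate replicates 1 to 4, against 134, 29.7, 31.97 and 23.98 CPM in citrate buffer replicates 1 to 4. Citrate buffer replicate 1 was above every other library, and it had the largest summed level of neutrophil markers, 443 CPM. Without it the *Il1b* log2 fold change was 1.33 (edgeR adjusted p = 0.000618), against 0.39 in all 8 libraries, where limma-voom also called it (1.26, adjusted p = 0.00864). In the fit without it 3 neutrophil markers were also called higher, *S100a8* (0.78), *S100a9* (0.82) and *Retnlg* (1.23), and the neutrophil markers then summed to 216 to 261 CPM after iron and 120 to 172 CPM after buffer. The part of neutrophil RNA in this result was not tested. *Plaur*, the urokinase receptor, was at 29.1, 29.4, 56.1 and 33.5 CPM in iron citrate replicates 1 to 4, against 10.5, 15.2, 22.9 and 33.4 CPM in citrate buffer replicates 1 to 4 (log2 fold change 0.86, edgeR adjusted p = 0.333).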

How the data were processed

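Libraries were made with the Ion AmpliSeq mouse transcriptome panel, which reads 1 short amplicon per gene. Each test compared a gene only with itself across libraries. Orders of abundance and marker sums across genes carry unknown amplicon efficiencies. The deposited values are raw counts per RefSeq target, made by the authors with HTSeq 0.6.0 per the submitters' processing notes. The sources used here name neither aligner nor genome build. HTSeq summary lines held 2.15% to 4.60% of reads and were left out. The design text speaks of 5 samples per group, and 4 per group were analysed here.

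Targets passing filterByExpr (14601 of 23930) were fitted with edgeR 4.0.16 (TMM factors, robust quasi-likelihood F-test, Benjamini-Hochberg adjustment over all targets, threshold 0.05) in R 4.3.3. CPM values are counts scaled to a common library total with TMM factors. Fold changes are iron citrate over citrate buffer. Alternatives were other scalings and filters, DESeq2 1.42.0, limma-voom (limma 3.58.1), a replicate block and each library left out. The fits were also run on simulated counts with known fold changes. That simulation held no library that stood apart as citrate buffer replicate 1 did, so it does not bear on calls that moved with that library. No pair of libraries looked like 1 library deposited as a pair (lowest chi-square per degree of freedom 8.79 over 28 pairs).

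All members were described. Genes named from each network list were those called and the 2 most abundant, except 1 that is not reported here. Members and lists were chosen with earlier results of these data known. Sequences are from RefSeq (GRCm38.p6). P-values measure the spread between libraries, 1 per mouse, in which differences between mice, sorts and library preparations cannot be told apart. Reads without molecular identifiers are not independent molecules.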

Additional observations from a re-analysis of the deposited data

Results flagged for a closer look

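Of 52 groups of 4 libraries over 26 genes, 5 held 1 library far from the other 3, and chance gives this in about 1 group in 20. *Map2k3* was at 80.68 CPM in iron citrate replicate 3, against 43.91 to 47.7 CPM in the other iron citrate libraries. The same library was high for *Ets1*, at 894.7 CPM with the others at 726.7 to 730.9 CPM, and for *Plaur*, at 56.1 CPM with the others at 29.13 to 33.53 CPM. *Map2k6* was at 53.7 CPM in citrate buffer replicate 2, with the other buffer libraries at 36.44 to 38.83 CPM. *Il1b* was at 133.5 CPM in citrate buffer replicate 1, with the others at 23.98 to 31.97 CPM.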

How the results depend on the processing

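*Map2k3* and *Map2k6* kept their directions under each alternative run, and their calls did not keep to 1 side of the threshold (adjusted p of 0.000294 to 0.326 for *Map2k3* and 3.02e-07 to 0.103 for *Map2k6*). With single libraries left out, the log2 fold change was 1.455 to 1.951 for *Map2k3* and -1.305 to -1.043 for *Map2k6*, with 46 to 259 targets, 0 to 2 members and 0 to 5 network genes called, against 81, 1 and 1 in all 8 libraries. *Map2k3* passed with DESeq2 (1.675), limma-voom (1.427), no filter on low counts (1.708) and without both citrate buffer replicates 1 and 2 (1.32), and 2 members were called in each of these. Targets called came to 365 with DESeq2, 290 with limma-voom and 281 without both libraries, and network genes to 5, 5 and 4. Upper-quartile factors moved the median of all targets by -0.109.

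The sample titles give replicate numbers and state no pairing. Same-numbered libraries deviated together at correlations of -0.315 to 0.609, which cannot decide whether the samples were paired. With a replicate block, 43 targets, 0 members and 0 network genes were called by edgeR, the log2 fold change of *Map2k6* was -1.181 (adjusted p = 0.0928), that of *Bmp6* 2.584 (adjusted p = 0.0517), and those of *Mapk13* (0.071) and *Mapk3* (0.034) turned sign. Not every library correlated best with its own number.

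The other 8 members gave 134 alternative fits, of which 25 turned sign and none passed. Values on the other side of 0, none of them called, were as follows. With upper-quartile factors they were *Mapk11* -0.06, *Map3k5* -0.095, *Mapkapk2* -0.089, *Rps6ka4* -0.056, *Dusp1* -0.003 and *Lsp1* -0.093, and with library totals *Mapk11* -0.048, *Map3k5* -0.082, *Mapkapk2* -0.076, *Rps6ka4* -0.038 and *Lsp1* -0.082. *Mapkapk2* and *Lsp1* were at -0.007 and -0.005 with RLE factors and with DESeq2, where *Map3k5* was at -0.001, and at -0.003 and -0.002 with a mean of at least 5 CPM. With limma-voom the values were *Mapk14* -0.001, *Mapk13* 0.574, *Mapkapk2* -0.107, *Map3k3* -0.087, *Rps6ka4* -0.128, *Ets1* -0.027, *Lsp1* -0.027 and *Ptprc* 0.108. Without both citrate buffer replicates 1 and 2, chosen after seeing the data, they were *Mapk14* -0.101, *Mapk13* 0.877, *Mapkapk2* -0.1, *Map3k3* -0.293, *Mknk2* -0.054, *Rps6ka4* -0.182, *Ets1* -0.168, *Dusp1* -0.007, *Lsp1* -0.085 and *Ptprc* 0.107. With single libraries left out, *Mapk13* lay between -0.351 and 0.427, *Mapkapk2* between -0.092 and 0.126, *Map3k5* between -0.078 and 0.155, *Map3k3* between -0.074 and 0.346, *Mapk3* between -0.18 and 0.088, *Rps6ka4* between -0.122 and 0.168, *Lsp1* between -0.073 and 0.187 and *Ptprc* between -0.445 and 0.13. The cause was not tested.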
